A study of Sus scrofa with 6 samples.

Results

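A set of 8 genes of cell division and chromatin was followed through lymph node, spleen and thymus of RAG2 knockout and wild-type pigs. They were taken by name from the deposited tables, as the rows CDK1, TOPOII, CDC20, EZH2, HMGB2, H2AFZ, HIST1H3E and HIST1H2BD, so they are 8 of the 4122 genes listed, and all 8 passed the expression minimum in all 3 tissues. One group carried a RAG2 biallelic knockout, described in the series title as the deletion of a single amino acid, and the other consisted of wild-type littermates. All animals were 3 months old. Each tissue and genotype had 1 library, 6 in all. The labels do not say how many animals there were, whether the 3 tissues came from the same animal, or their sex or breed. Differences are therefore described without a replicate check, a test or a p-value.

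RAG2 acts with RAG1 to cut antigen receptor genes for rearrangement, a step without which T and B cells do not mature. In the mouse, loss of either protein stops thymocytes before the burst of division that follows a productive receptor beta chain, and leaves lymph nodes and spleen without mature T and B cells. Dividing cells switch on a shared set of genes: enzymes of DNA replication and new histones in S phase, then mitotic kinases and the machinery that separates chromosomes. In lymphoid organs, cycling thymocytes and activated lymphocytes such as germinal centre B cells are among the sources of these transcripts. Which cells they came from in these libraries was not tested.

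The 8 genes have different places in that programme. CDK1 is the kinase that drives entry into mitosis. TOPOII, the older name of TOP2A, encodes DNA topoisomerase II alpha, which untangles replicated chromosomes. CDC20 activates the anaphase-promoting complex, which releases sister chromatids. EZH2 is the catalytic subunit of Polycomb repressive complex 2 and methylates histone H3. HMGB2 bends DNA and assists the RAG recombinase as well as other chromatin enzymes. H2AFZ encodes the histone variant H2A.Z, while HIST1H3E and HIST1H2BD encode histones H3 and H2B from the clustered histone genes, most of which are transcribed in S phase.

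In Sscrofa11.1 CDK1 lies on chromosome 14 (64233945 to 64255290), as does HMGB2 (16709966 to 16712288). TOPOII is on chromosome 12 (22001300 to 22028452), CDC20 on chromosome 6 (167886266 to 167890587), EZH2 on chromosome 9 (109384976 to 109450943) and H2AFZ on chromosome 8 (120563752 to 120566023). The 2 clustered histone genes are neighbours on chromosome 7. HIST1H2BD spans 20821090 to 20829491 and HIST1H3E spans 20853945 to 20855172, with 24453 bases between them. CDK1 and HIST1H3E each overlap 1 other annotated locus (LOC100152879 and LOC110261484) that the tables do not list. The strand setting of the counting is not given in the sources used here, and clustered histone genes have near-identical copies, so the levels of CDK1, HIST1H3E and HIST1H2BD may include or lack fragments of other loci.

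Levels are FPKM, fragments normalised by the authors to transcript length and sequencing depth. Fragments assigned to the listed genes numbered between 1922563 and 2541724 per library, which is part of the depth, since the tables hold part of the genes. After adding 1 FPKM to every level, the knockout was divided by the wild type, and a gene whose log2 ratio reached 1 or -1 was called higher or lower. A fold is the ratio of scaled fragment counts, with its 95% exact counting interval in brackets. The interval covers counting error and says nothing of the spread between animals.

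The tissue labels were read against marker genes. The T-cell coreceptor CD8B stood at 1118 FPKM in wild-type thymus, 61.2 FPKM in wild-type lymph node and 4.89 FPKM in wild-type spleen, and the B-cell gene MS4A1 at 10.0 FPKM, 356 FPKM and 135 FPKM in the same order. In the knockout libraries MS4A1 was at or below 0.887 FPKM in all 3 tissues. Summed over 12 T-cell markers, the level went from 2033 to 301 FPKM in lymph node, from 792 to 427 FPKM in spleen and from 10821 to 4233 FPKM in thymus, wild type first. Called lower were 11, 6 and 9 of the 12 in that order, against 10.3%, 10.0% and 10.9% of measured genes. The spleen sum joins unlike genes. CD3E went from 155 to 2.16 FPKM there, while CD3D was at 83.7 and 92.9 FPKM, with a fold interval that includes equal levels (0.904 to 1.41). Summed over 6 B-cell markers the level went from 1770 to 67.4 FPKM in lymph node, from 642 to 106 FPKM in spleen and from 203 to 213 FPKM in thymus. POU2AF1, a coactivator of B cells, was at 0 in the knockout lymph node and spleen. The knockout lymph node library also held fat-cell RNA: 7 adipocyte markers summed to 10754 FPKM in it and to 366 FPKM in its wild-type counterpart, led by the hormone adiponectin, ADIPOQ, at 7483 FPKM. The same markers summed to 308 and 281 FPKM in spleen and to 506 and 2044 FPKM in thymus, wild type first. CD36 alone made up 279 and 262 FPKM of the spleen sums and 260 FPKM of the wild-type lymph node sum. ADIPOQ in spleen was at 10.5 and 5.20 FPKM, from 5 and 4 fragments. The red-cell gene HBB was 18.3-fold higher in the knockout lymph node (16.4 to 20.4), 2.12-fold lower in the knockout spleen (2.09 to 2.16) and 5.24-fold higher in the knockout thymus (4.88 to 5.64). In spleen HBB was the 1 erythroid marker of 4 called lower. The regulators KLF1 and GATA1 were called higher there, at log2 ratios of 2.22 and 2.17 and from 5 wild-type fragments each. EPOR was not called in spleen (0.39). The sum over 6 neutrophil markers was higher in every knockout tissue, at 44.0 and 595 FPKM in lymph node, 43.8 and 1759 FPKM in spleen, and 129.8 and 2190 FPKM in thymus. One of them, the protease gene MMP9, went the other way in lymph node, at 30.6 and 2.92 FPKM. The part of fat, blood and neutrophil RNA in the levels of the 8 genes was not tested. In a bulk sample, fewer cells of a type and less RNA per cell cannot be told apart, and this holds for every level below.

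Together the 8 genes took 0.289% of the listed fragments in wild-type lymph node and 0.0723% in the knockout. In spleen they took 0.205% and 0.139%, and in thymus 1.79% and 1.29%. Of the 24 pairs of libraries, 1 gene in 1 tissue each, 23 had the lower level in the knockout. CDK1 and CDC20 in spleen were among the 23, with intervals that include equal levels. The median log2 ratio of all measured genes was -0.0046 in lymph node, -0.016 in spleen and -4.7e-05 in thymus. Lower levels in all 3 tissues were found for 7 of the 8 genes, against 19.7% of the 2671 genes measured in every tissue, and the exception was HIST1H3E. The size of the difference depended on both the gene and the tissue.

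**Figure D1:**
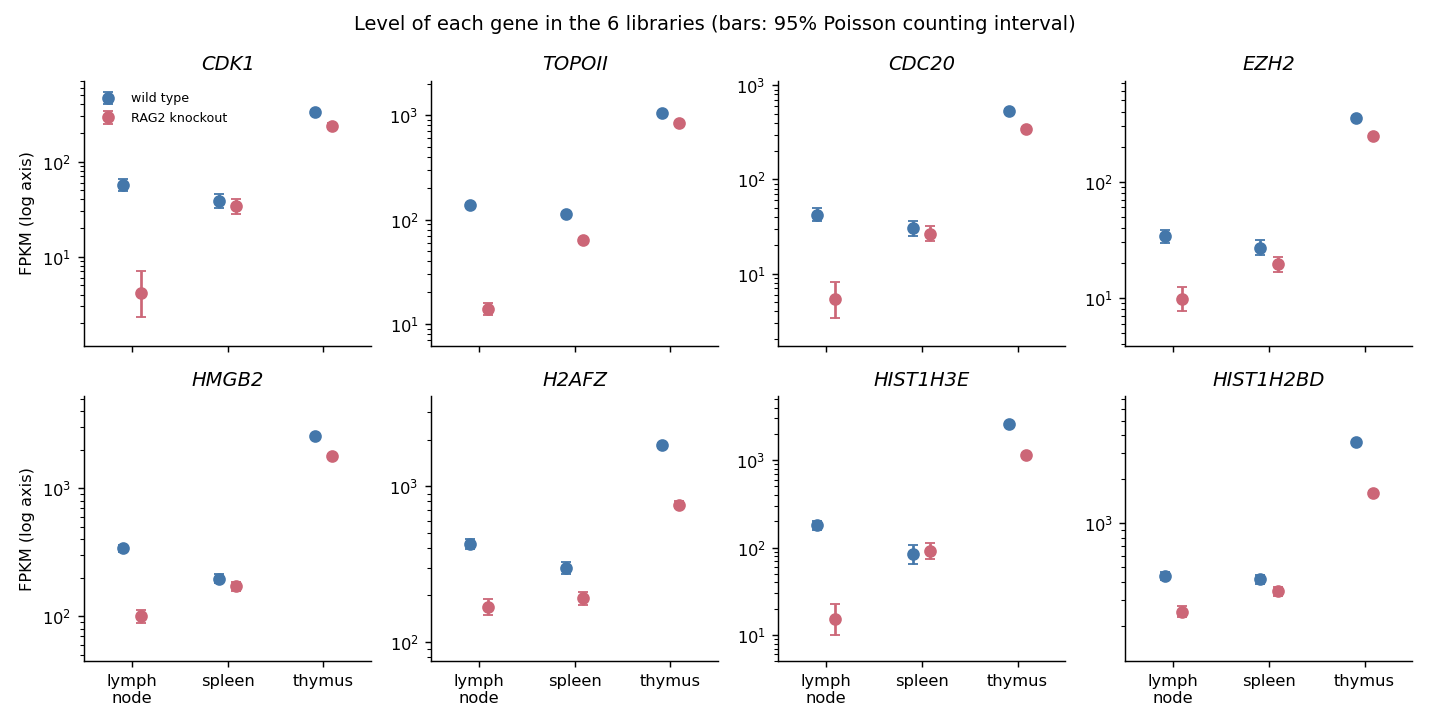
FPKM of the 8 genes on log axes (1 panel per gene, each with its own range) in lymph node, spleen and thymus, with wild type in blue, RAG2 knockout in red, 1 library per point and bars for the 95% Poisson counting interval. Thymus is highest for every gene in both genotypes, and the knockout lymph node holds the lowest level of each gene.

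In lymph node 7 of the 8 genes were called lower and 0 higher, where 10.3% of all 2910 measured genes were lower and 15.3% higher. Their median log2 ratio was -2.25, and that of all measured genes was -0.0046. The counting interval lay below equal levels for all 8, as it did for 30.6% of measured genes. The 3 genes of mitosis and the H3 gene stood far apart from the other 4.

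CDK1 was at 56.9 and 4.21 FPKM in wild-type and knockout lymph node, at 38.8 and 34.0 FPKM in spleen, and at 332 and 238 FPKM in thymus. The knockout lymph node was thus far below the other 5 libraries, while the spleen libraries were close to each other. In fold, CDK1 was 13.4-fold lower in knockout lymph node (7.80 to 25.1, from 180 to 14 fragments; log2 ratio -3.47), and 1.03% of measured genes had a lower log2 ratio. In spleen it was 1.13-fold lower with an interval that includes equal levels (0.879 to 1.46), and in thymus 1.40-fold lower (1.27 to 1.53), short of a call.

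TOPOII was at 137 and 14.0 FPKM in wild-type and knockout lymph node, at 113 and 63.2 FPKM in spleen, and at 1045 and 849 FPKM in thymus. Its 17774 fragments in wild-type thymus were the most of the 8 genes in that library. The lymph node difference was 9.77-fold (8.54 to 11.2; log2 ratio -3.20). TOPOII also had the largest difference of the 8 genes in spleen, 1.78-fold lower (1.66 to 1.92; log2 ratio -0.83), and the smallest in thymus, 1.23-fold lower (1.20 to 1.26; log2 ratio -0.30).

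CDC20 was at 42.2 and 5.43 FPKM in wild-type and knockout lymph node, at 30.3 and 26.6 FPKM in spleen, and at 531 and 346 FPKM in thymus. Its pattern follows that of CDK1, with a low knockout lymph node and near-equal spleens. The fold was 7.74 lower in lymph node (4.95 to 12.7, from 163 to 22 fragments; log2 ratio -2.75) and 1.54 lower in thymus (1.44 to 1.64). The spleen interval, 0.872 to 1.46, includes equal levels.

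EZH2 was at 33.8 and 9.84 FPKM in wild-type and knockout lymph node, at 27.1 and 19.4 FPKM in spleen, and at 352 and 246 FPKM in thymus. The difference in lymph node was 3.43-fold (2.62 to 4.53; log2 ratio -1.68), well short of the 3 mitotic genes, whose intervals lie wholly beyond it. In spleen and thymus EZH2 was 1.39-fold (1.12 to 1.72) and 1.43-fold lower (1.35 to 1.52), neither of them a call.

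HMGB2 was at 341 and 100.2 FPKM in wild-type and knockout lymph node, at 197 and 171 FPKM in spleen, and at 2543 and 1794 FPKM in thymus. Its lymph node difference of 3.38-fold (2.96 to 3.86; log2 ratio -1.76) matched that of EZH2 within counting error. So did its thymus difference of 1.42-fold (1.37 to 1.47). In the knockout thymus HMGB2 had the highest FPKM of the 8 genes, a place that HIST1H2BD held in the other 5 libraries.

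H2AFZ was at 427 and 168 FPKM in wild-type and knockout lymph node, at 298 and 189.9 FPKM in spleen, and at 1838 and 763 FPKM in thymus. It is the one gene of the 8 with nearly the same fold in lymph node and thymus, 2.52-fold lower (2.19 to 2.90; log2 ratio -1.34) and 2.41-fold lower (2.26 to 2.57; log2 ratio -1.27). The spleen difference was 1.55-fold (1.35 to 1.77; log2 ratio -0.65), short of a call.

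HIST1H3E was at 179.6 and 15.4 FPKM in wild-type and knockout lymph node, at 83.6 and 92.5 FPKM in spleen, and at 2601 and 1146 FPKM in thymus. The lymph node fold, 11.5 lower (7.63 to 18.1, from 275 to 25 fragments; log2 ratio -3.46), was of the size seen for CDK1 and TOPOII. In thymus it was 2.27-fold lower (2.15 to 2.40; log2 ratio -1.18). Spleen was the exception among the 24 pairs, with 65 wild-type and 87 knockout fragments and a ratio of 1.15 whose interval, 0.822 to 1.61, includes equal levels. HIST1H3E had more FPKM per fragment in wild-type spleen (83.6 FPKM from 65) than in wild-type lymph node (179.6 from 275) or thymus (2601 from 4168). The folds compare fragments within a tissue, but its spleen FPKM is not on the same scale as its FPKM in the other tissues.

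HIST1H2BD was at 438 and 251 FPKM in wild-type and knockout lymph node, at 416 and 346 FPKM in spleen, and at 3575 and 1615 FPKM in thymus. It was the member not called in lymph node, at 1.73-fold lower (1.55 to 1.94; log2 ratio -0.80), and it was called in thymus, at 2.21-fold lower (2.12 to 2.31; log2 ratio -1.15). The 2 clustered histone genes therefore differed most in lymph node. HIST1H3E per HIST1H2BD, as a ratio of FPKM, was 0.410 (0.357 to 0.471) in wild-type and 0.0616 (0.0395 to 0.0920) in knockout lymph node. In spleen the ratio was 0.201 (0.154 to 0.259) and 0.268 (0.212 to 0.334), and in thymus 0.728 (0.700 to 0.756) and 0.709 (0.670 to 0.751), with overlapping intervals in both tissues. The spleen ratios carry the higher FPKM per fragment of HIST1H3E in that tissue, which the intervals do not cover.

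**Figure D2:**
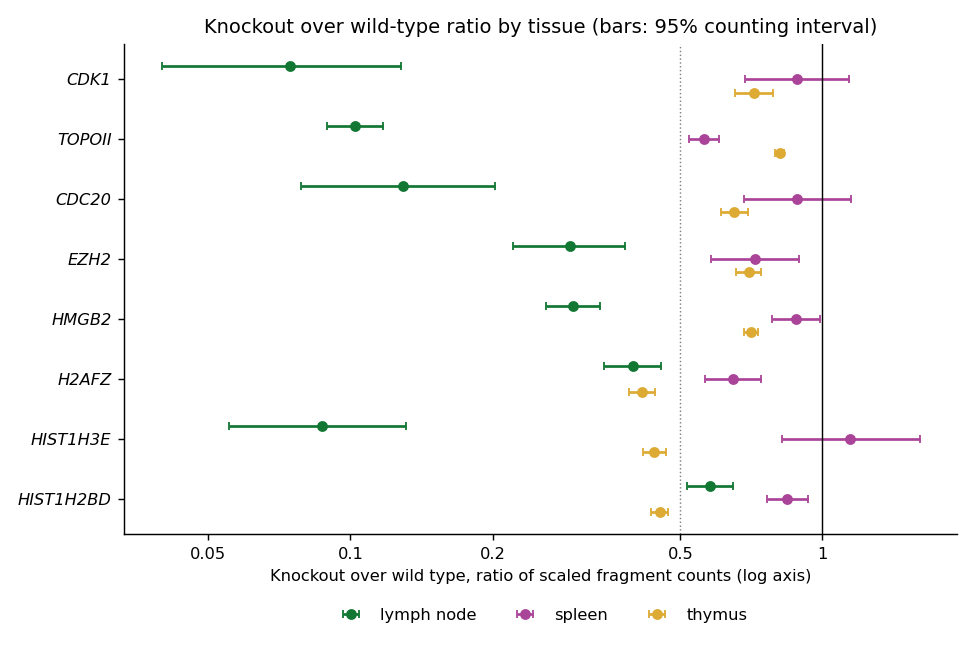
Ratio of knockout over wild-type scaled fragment counts on a log axis for each gene, by tissue in colour, with bars for the 95% exact counting interval, a solid line at equal levels and a dotted line at 0.5. In lymph node HIST1H2BD stands above the dotted line and the other 7 genes below it, and in thymus the 3 histone genes stand below it and the other 5 above.

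In spleen none of the 8 genes was called, 0 lower and 0 higher, where 10.0% of 2849 measured genes were lower and 8.88% higher. Their median log2 ratio was -0.23 against -0.016 for all measured genes, and the values ran from -0.83 for TOPOII to 0.15 for HIST1H3E. The counting interval lay below equal levels for 5 of them (TOPOII, EZH2, HMGB2, H2AFZ and HIST1H2BD), as it did for 28.9% of all measured genes, and included equal levels for CDK1, CDC20 and HIST1H3E. The spleen pair differed in cell markers as well: the neutrophil genes S100A8 and S100A9 were 38.5-fold (21.8 to 74.9) and 99.2-fold higher (47.9 to 248) in the knockout, and 5 fibroblast markers summed to 4979 and 1833 FPKM, wild type first. The part of fibroblast RNA in the spleen levels was not tested either.

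In thymus 3 of the 8 genes were called lower and 0 higher, where 10.9% of 2908 measured genes were lower and 15.2% higher. The 3 were the histone genes H2AFZ, HIST1H3E and HIST1H2BD, at log2 ratios between -1.27 and -1.15. The 5 others lay between -0.62 for CDC20 and -0.30 for TOPOII. The interval lay below equal levels for all 8, as it did for 31.0% of measured genes. The median of the 8 was -0.57 and that of all measured genes was 0.00 to 2 decimals. In the same pair the coreceptors CD8A and CD8B, which thymocytes gain after the beta chain has been rearranged, had log2 ratios of -5.43 and -4.73. They were among the lowest of 12 T-cell markers, of which 9 were called lower and 3 were not. The 3 were CD3E (-0.88), CD3G (-0.26) and BCL11B, which went the other way (0.20). ADIPOQ had a log2 ratio of 3.13.

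**Figure D3:**
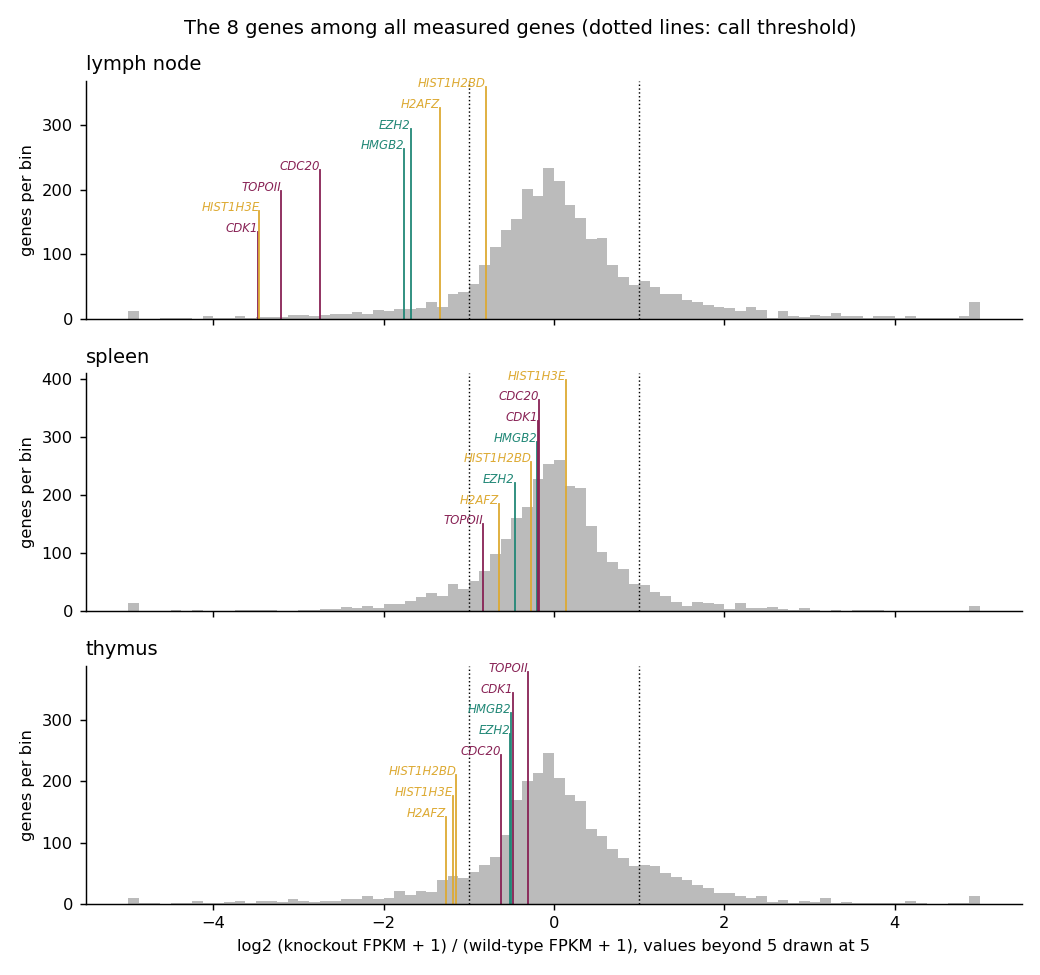
Histograms of the log2 ratio (knockout over wild type) for all measured genes in each tissue, with the 8 genes drawn as lines (mitosis in purple, EZH2 and HMGB2 in green, histones in yellow) and the call threshold dotted. The 8 genes spread over the left tail in lymph node, lie within the bulk in spleen, and in thymus the 3 histone genes stand just past the threshold while the other 5 lie between -0.62 and -0.30.

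The lymph node and spleen differences were set against each other, since the 2 tissues share no library. For all 8 genes the interval of the fold in lymph node lay wholly below that in spleen, as it did for 23.4% of the 2752 genes measured in both. Lymph node lay wholly below thymus for 6 genes, against 21.0% of 2757 genes. H2AFZ had overlapping intervals there, and HIST1H2BD went the other way, with the thymus interval below that of lymph node, as for 16.8% of genes. Thymus lay wholly below spleen for 4 genes (HMGB2 and the 3 histone genes), against 23.8% of 2718 genes, and spleen below thymus for TOPOII, against 25.3%. These intervals hold counting error alone, so they do not test a difference between tissues across animals.

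Across tissues, whose tables were normalised separately, all 8 genes were highest in thymus in both genotypes, as were 48.4% of 3111 genes in wild type and 44.0% in the knockout. The wild-type order was thymus, lymph node, spleen for all 8 genes, an order held by 29.7% of genes. In the knockout it was thymus, spleen, lymph node for all 8, held by 20.5% of genes, and 11.4% of genes had both orders. For HIST1H2BD the wild-type lymph node and spleen levels did not differ beyond counting error (ratio 1.05, 0.954 to 1.16), and for H2AFZ the same holds in the knockout (ratio 0.883, 0.756 to 1.03).

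The step from lymph node to thymus varied among the genes. In wild type the FPKM in thymus exceeded that in lymph node 14.5-fold for HIST1H3E (12.8 to 16.4), 12.6-fold for CDC20 (10.7 to 14.8) and 10.4-fold for EZH2 (9.11 to 11.9), but 4.31-fold for H2AFZ (3.97 to 4.68). In the knockout the same ratio was 74.2 for HIST1H3E (50.1 to 115), 63.7 for CDC20 (41.9 to 102), 60.7 for TOPOII (53.4 to 69.3) and 56.5 for CDK1 (33.5 to 104). It was 4.55 for H2AFZ (4.01 to 5.19) and 6.45 for HIST1H2BD (5.87 to 7.09). Between thymus and spleen the knockout ratios ran from 4.02 to 13.4 and the wild-type ratios from 6.16 to 31.1. The 31.1 is that of HIST1H3E, whose FPKM per fragment was higher in spleen than in the other tissues. Its FPKM ratios to spleen carry that difference as well.

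Several of the genes have a close relative that is less tied to division, and the pair can be compared within a library, where depth cancels. These pairs were chosen after the values were seen. TOPOII per TOP2B, the topoisomerase II beta of resting and dividing cells, was 0.364 in wild-type and 0.0632 (0.0552 to 0.0721) in knockout lymph node, 0.410 and 0.287 in spleen, and 1.08 and 1.17 in thymus. The knockout ratio was below wild type in lymph node and spleen and above it in thymus, with no overlap of intervals in any of the 3. TOP2B itself had log2 ratios of -0.76, -0.32 and -0.42 in lymph node, spleen and thymus, none of them a call.

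EZH2 per EZH1, the other catalytic subunit of the same complex, was 0.412 (0.353 to 0.479) in wild-type and 0.0872 (0.0676 to 0.111) in knockout lymph node. In thymus the ratio was 7.22 (6.48 to 8.06) and 2.80 (2.57 to 3.06), so EZH2 exceeded EZH1 in both thymus libraries and in no other. EZH1 had a log2 ratio of 0.45 in lymph node, -0.24 in spleen and 0.83 in thymus, none of them a call, and its thymus levels were 48.8 and 87.7 FPKM. In spleen EZH2 per EZH1 was 0.326 and 0.276, with overlapping intervals.

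HMGB2 per HMGB1 was 0.447 (0.417 to 0.479) in wild-type and 0.190 (0.168 to 0.214) in knockout lymph node, and the other 2 tissues moved far less, from 0.325 to 0.364 in spleen and from 0.613 to 0.583 in thymus. H2AFZ per H2AFY, which encodes the large variant macroH2A, was lower in the knockout of every tissue, at 2.30 and 1.06 in lymph node, 1.47 and 0.892 in spleen, and 5.39 and 1.77 in thymus. HIST1H3E per H3F3A, which encodes the H3.3 made outside S phase, was 0.414 and 0.0723 (0.0456 to 0.110) in lymph node, 0.212 and 0.359 in spleen, and 2.42 and 1.71 in thymus. In spleen this ratio was higher in the knockout, with an interval of 0.278 to 0.460 that just overlaps the wild-type interval of 0.160 to 0.278. Both spleen ratios carry the higher FPKM per fragment of HIST1H3E there, so they are not comparable with those of the other tissues.

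**Figure D4:**
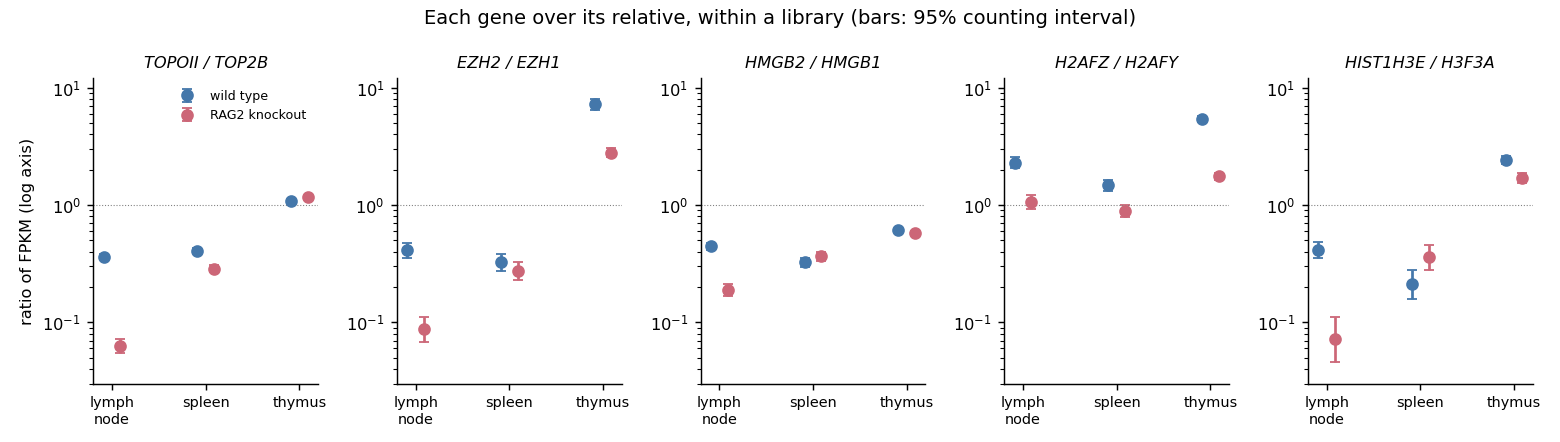
Ratio of FPKM of a gene over its relative within each library, on a log axis common to the 5 panels, with wild type in blue, knockout in red and bars for the 95% exact counting interval. In lymph node each ratio is lower in the knockout, whereas in thymus TOPOII over TOP2B is slightly higher and EZH2 over EZH1 and H2AFZ over H2AFY are clearly lower.

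Other genes of mitosis were read from a list, which shares no gene with the 8. Of 12 listed in the tables, CDC16 was at 0 in every library and 11 were measured. In lymph node 7 of the 11 were lower and 0 higher (median log2 ratio -1.41). CCNB1 and CCNB2, the B-type cyclins that bind CDK1, had log2 ratios of -2.57 and -2.49, and the spindle kinase AURKB had -2.26. None of the 11 was called in spleen (median -0.29) or in thymus (median -0.50), where CCNB1 was at 264 and 143 FPKM. As for the 8 genes, the median was lowest in lymph node and nearest to 0 in spleen. MKI67, a widely used marker of cycling cells singled out here after its value was seen, was at 137 and 100.5 FPKM in lymph node, a log2 ratio of -0.45. In spleen and thymus its log2 ratios were 0.26 and -0.30. In wild-type lymph node its 137 FPKM came from 550 fragments, and the 137 FPKM of TOPOII from 2214. The length used for MKI67 was thus shorter than that of TOPOII, and whether the row covers the whole transcript was not tested. CDK1 per MKI67, as a ratio of FPKM, was 0.414 (0.348 to 0.491) in wild-type and 0.0419 (0.0227 to 0.0710) in knockout lymph node.

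Genes of the G1/S step and of DNA replication were lower in 4 of 8 measured cases in lymph node (median -0.87) and in 2 of 8 in thymus (median -0.58), with 0 called in spleen (median -0.32) and 0 higher in any tissue. TYMS and CDK4 were listed at 0 in every library. PCNA, the sliding clamp of the replication fork, was called in both tissues, at 282 and 79.0 FPKM in lymph node (log2 ratio -1.82) and at 1484 and 545 FPKM in thymus (-1.44). In thymus PCNA thus stood with the histone genes and not with the mitotic genes. CDK1 per PCNA was 0.224 (0.209 to 0.239) in wild-type and 0.436 (0.401 to 0.475) in knockout thymus, and in lymph node it moved the other way, from 0.202 (0.171 to 0.238) to 0.0533 (0.0287 to 0.0912). In lymph node MYC, which encodes a growth-promoting transcription factor, had a log2 ratio of -1.48.

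Other chromatin genes were counted by list. Of 7 measured genes of Polycomb complexes and DNA or histone methylation, 0 were called in any tissue, with medians of -0.078 in lymph node, 0.15 in spleen and -0.35 in thymus. Of 4 high mobility group genes 1 was lower in lymph node, HMGA1 at -1.71 (median -0.72), and 1 in thymus, HMGN2 at -1.05 (median -0.60), a call that is lost when fragments are scaled to the library total. HMGN2 was at 7945 and 3849 FPKM in the 2 thymus libraries. In spleen 0 of the 4 were called (median -0.13) and HMGA1 had a log2 ratio of 0.55. Of the 2 other histone genes measured, H3F3A was lower in lymph node, at -1.02, a call that is lost with scaling to the library total, with edgeR TMM and with DESeq2 size factors, and H2AFY was not called in any tissue.

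**Figure D5:**
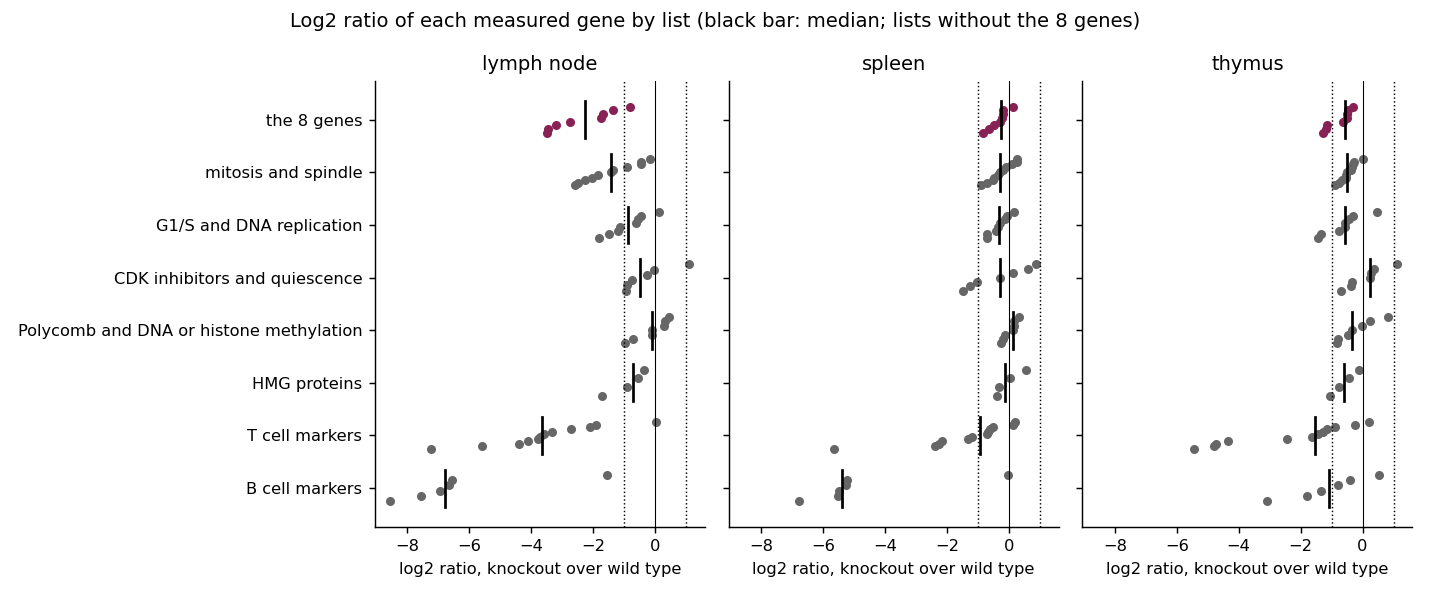
Log2 ratio of knockout over wild type for each measured gene (points) of the 8 genes and of 7 lists that exclude them, by tissue, with the list median as a black bar and the call threshold dotted. Mitosis genes lie left of 0 in lymph node, with a median of -1.41, and T-cell and B-cell markers reach far lower values than any gene of division.

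Among genes with at least 5 FPKM in 1 or more libraries, the 5 whose pattern over the 6 libraries was most like the mean of CDK1, TOPOII and CDC20 were SPAG5, C1H9orf100, HIGD2A, C1H9orf46 and SLC9A3R1, with Pearson correlations of log2 FPKM between 0.9951 and 0.9973. SPAG5, which encodes a protein of the mitotic spindle, was at 14.0 and 1.54 FPKM in lymph node, 11.5 and 9.77 FPKM in spleen, and 77.0 and 50.9 FPKM in thymus. The 2 genes most like HIST1H3E were CCNB1 (0.9984) and KIF22 (0.9970), a kinesin motor of mitotic chromosomes. HMGB2 and EZH2 both had SCG5 among their nearest 2 (0.9979 and 0.9981), with PRPF3 beside HMGB2 and SPAST beside EZH2. CHTOP and ZFP64 were nearest to H2AFZ (0.9969 and 0.9967), and EHMT2 and HNRNPK to HIST1H2BD (0.9997 for each). Such values come easily with 6 libraries of which 2 are thymus: 9.51% of the 2796 genes compared had a correlation above 0.9 with the mitotic mean, and 16.3% with HIST1H2BD. The 28 pairs among the 8 genes had correlations between 0.905 and 0.996.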

How the data were processed

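RNA was isolated on RNeasy columns and libraries were prepared with a stranded TruSeq total RNA kit, per the labels' protocols. The submitters' processing notes name FastQC 0.11.9, Trimmomatic 0.39, STAR 2.7.9a, Cufflinks 2.2.1 and the build Sscrofa11.1; the order, the settings and the annotation were not stated in the sources used here. The authors deposited, per tissue, 1 table of FPKM and 1 table of estimated counts, both with 4122 genes. The deposited estimated counts carry 1 factor per library, read from the values: 98.6 to 99.3% were whole within 0.02 after division by a step of 0.925 to 1.08. They were divided by it and rounded to fragments.

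Genes with at least 1 FPKM in 1 library of a tissue were taken as measured. Folds are ratios of fragments times this factor, with 95% Clopper-Pearson intervals; levels have exact Poisson intervals. Both cover counting error only. The calculation was also run on simulated fragments that held counting error alone. Calls there used fragment ratios without the added 1 FPKM and also needed the counting interval to exclude equal levels. The run therefore does not check the calls used here or the spread between animals. Gene names and coordinates (from 1) come from RefSeq for Sscrofa11.1. The 8 genes, the 13 lists and the rules were chosen with earlier results of these data known. From each list up to 3 called genes per tissue with the largest absolute log2 ratio were named, or any gene of lists with fewer than 6 measured. The genes most alike in pattern were the 5 or 2 with the highest Pearson correlation. CD8B and CD8A, CD3D, EZH1 and other pair partners, MKI67, CCND2 and genes listed at 0 were named after their values were seen where the rule did not name them. A gene that the rule named is not reported here. Alternatives are given in the closing section. Python 3.11.15, numpy 2.4.6, pandas 2.3.3, scipy 1.17.1, matplotlib 3.10.9, R 4.3.3, edgeR 4.0.16 and DESeq2 1.42.0 were used, the last 2 for scaling factors alone.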

Additional observations from a re-analysis of the deposited data

Results flagged for a closer look

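HIST1H3E had opposite directions in 2 tissues, each with 1 library per genotype. Its log2 ratio of knockout over wild type was 0.15 in spleen and -3.46 in lymph node, a gap of 3.60, and -1.18 in thymus, a gap of 1.33. The difference between tissues was not tested. The spleen value rests on 65 and 87 fragments, and its counting interval includes equal levels.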

How the results depend on the processing

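Alternatives were 3 scalings of the fragments (library total, TMM in edgeR, size factors in DESeq2), 2 pseudocounts (0.1 and 5), centring on the median, no expression minimum or one of 5 FPKM, a threshold of 2, and the counting interval. The 24 log2 ratios of the 8 genes kept their direction and their side of the threshold in 144 of 144 values under the first 6 of these. With a threshold of 2 the genes called lower numbered 4 in lymph node and 0 in thymus. All genes higher and lower then numbered 163 and 112 in lymph node, 79 and 76 in spleen, and 110 and 105 in thymus. A pseudocount of 5 gave 166 and 160 in spleen and 272 and 183 in thymus. Fewer genes pass a higher threshold or a larger pseudocount by construction. The order of tissues held for 8 of 8 genes in both genotypes with TMM and DESeq2 factors over the 6 libraries. No paired analysis was possible because each tissue and genotype has 1 library and the labels give no replicate numbers, and for the same reason no replicate could be left out. Depth limits CDK1, CDC20 and HIST1H3E most in knockout lymph node, with 14, 22 and 25 fragments.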

Other observations

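Cyclins of the D type, which carry growth signals to the cell cycle, differed by tissue. CCND3 was called lower in thymus, at 498 and 198 FPKM (wild type first; log2 ratio -1.33), and was not called in lymph node (-0.44) or spleen (-0.05). CCND2 was called lower in lymph node (252 and 115 FPKM, log2 ratio -1.12), and in thymus it was at 30.2 and 41.7 FPKM, where the counting interval of its fold, 0.885 to 2.18, includes equal levels.

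Genes that restrain division did not move as 1 group. In spleen BTG1, BTG2 and KLF2, which are linked to quiescent lymphocytes, were called lower, 3 of 7 measured, with log2 ratios of -1.24, -1.48 and -1.03 (median of the list -0.29); with DESeq2 size factors 2 were called. In lymph node BTG2 was called higher, at 91.9 and 198 FPKM (log2 ratio 1.10), 1 of 6 measured (median -0.49). In thymus the 1 called gene of 7, CDKN2B, rested on 0 and 1 fragments (median 0.24). CDKN1B was listed at 0 in every library.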
